A study of Homo sapiens with 12 samples.

Results

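The genes described here encode the extracellular and membrane parts of Wnt signaling, in MIA PaCa-2 cells with and without TIMP1. They were taken by symbol from the table of all genes: the Wnt ligands, the Frizzled receptors, the coreceptors LRP5 and LRP6, the secreted inhibitors SFRP1, SFRP2, SFRP4, SFRP5 and DKK1 to DKK4, and AXIN2, RNF43, ZNRF3, LGR4 and LGR5. This rule found 44 of the 63086 genes in the table, made up of 19 ligands, 10 Frizzled receptors, 2 coreceptors, 8 secreted inhibitors and 5 genes of the feedback and R-spondin axis. A mean of at least 10 normalised counts over all libraries, the minimum for a test, was reached by 32 of them and missed by 12.

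MIA PaCa-2 is an established line of human pancreatic carcinoma cells, and TIMP1 encodes a secreted inhibitor of metalloproteinases. RNA of 4 lines was sequenced, with 3 biological replicates of each: unmodified cells (WT), a CRISPR Control line whose genotype is wild type with a silent point mutation, and TIMP1 KO 1 and TIMP1 KO 2, both edited in exon 4 of TIMP1. Per the methods, both knockout lines are clones, 2 guide RNAs against different parts of that exon were used, and all lines were grown in medium with serum. WT and CRISPR Control are called competent here, and both knockouts deficient. Each edited line was derived once, so what belongs to a line and what belongs to its edit cannot be told apart within any 1 of them. Nothing in the sources says how separate the cultures of 1 line were, so the p-values measure the spread between these libraries.

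Wnt ligands are lipid-modified secreted proteins that bind Frizzled receptors at the cell surface. With LRP5 or LRP6 as coreceptor, this binding stops the destruction of β-catenin, which then enters the nucleus and drives target genes such as AXIN2. Other Wnt ligands, among them WNT5A, WNT5B and WNT11, are best known for signaling that does not need β-catenin. SFRP proteins bind Wnt ligands outside the cell, DKK1 blocks LRP5 and LRP6, and the membrane ubiquitin ligases RNF43 and ZNRF3 remove Frizzled receptors until R-spondins, bound to LGR4 or LGR5, take these ligases away. In pancreatic carcinoma, loss of RNF43 is known to make cells depend on Wnt ligands.

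The libraries held 26908701 to 36093563 reads in genes, and the floor that 3 reads set was 2.49 to 3.56 normalised counts. TIMP1 itself stood at 3837, 3290 and 3532 normalised counts in WT and at 2285, 2826 and 2959 in CRISPR Control. It stood at 1562, 1624 and 1613 in TIMP1 KO 1 and at 1136, 1192 and 1155 in TIMP1 KO 2, so every knockout library lay below every competent library while TIMP1 RNA remained detectable. Of 6 epithelial markers (EPCAM, CDH1, KRT7, KRT8, KRT18, KRT19), all were above the floor in every line. Their summed level was 56587 to 72786 in CRISPR Control and 174305 to 223516 in the other lines, and CDH1, the epithelial cadherin, averaged 1189 normalised counts in WT and 1424 in CRISPR Control, against 128 in TIMP1 KO 1 and 84.9 in TIMP1 KO 2. The keratins KRT19 and KRT7 did not follow CDH1. KRT19 averaged 15707 and 4583 in WT and CRISPR Control and 24591 and 52497 in the clones. KRT7 averaged 91.5 and 112 against 121 and 191. Of 5 mesenchymal markers, TWIST1 was at or under the floor in all lines. CDH2 averaged 571 normalised counts in WT and 1110 in CRISPR Control, against 93.7 in TIMP1 KO 1 and 384 in TIMP1 KO 2. In the same order, FN1 averaged 105, 826, 51.2 and 90.6. VIM averaged 70742, 58625, 93176 and 72716, and ZEB1 averaged 1226, 954, 1288 and 1258. Among leukocyte markers, CD3E and NKG7 were at or under the floor in all lines, whereas CD14 averaged 36.2 and 36.5 normalised counts in the competent lines, against 83.0 in TIMP1 KO 1 and 161 in TIMP1 KO 2, and line means of PTPRC and CD68 were 0.36 to 11.4. Of 6 fibroblast markers, DCN was at or under the floor in all lines and LUM averaged at most 4.12. The summed level, 9503 to 12978 in the competent lines and 30829 to 65835 in the deficient lines, was mostly COL1A1 (means of 11490 and 8868 against 56612 and 33836), while THY1 was highest in CRISPR Control (1898) and lowest in WT (1008). PDGFRA averaged 23.6 normalised counts in WT and 2.95 in CRISPR Control, against 8.41 in TIMP1 KO 1 and 283 in TIMP1 KO 2. PDGFRB averaged 14.0, 53.7, 32.7 and 48.2 in the same order. Of the endothelial markers, KDR averaged 127, 11.9, 93.3 and 213, and line means of PECAM1, CDH5 and VWF were at most 13.1. The part of these marker differences in the Wnt results was not tested. In bulk RNA, fewer cells that express a gene and less of its RNA per cell cannot be told apart.

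Upstream sequences are shown for 3 genes whose levels differed strongly between lines. WNT6 and WNT10A are neighbours on the plus strand of chromosome 2, 6.618 kb apart, and DKK1 had the highest level of the inhibitors per kilobase of exon. The sequences are the 250 bases before each RefSeq gene start in GRCh38.p14, plus strand, with the motif CTTTGAA, a form of the binding motif of TCF and LEF factors, in capitals where present.
WNT6, chr2:218859555-218859804: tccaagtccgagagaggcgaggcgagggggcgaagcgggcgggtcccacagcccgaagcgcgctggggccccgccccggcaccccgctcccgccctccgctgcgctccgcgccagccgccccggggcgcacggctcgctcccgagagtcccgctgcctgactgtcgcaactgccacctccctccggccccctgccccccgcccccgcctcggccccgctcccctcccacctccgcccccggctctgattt
WNT10A, chr2:218880602-218880851: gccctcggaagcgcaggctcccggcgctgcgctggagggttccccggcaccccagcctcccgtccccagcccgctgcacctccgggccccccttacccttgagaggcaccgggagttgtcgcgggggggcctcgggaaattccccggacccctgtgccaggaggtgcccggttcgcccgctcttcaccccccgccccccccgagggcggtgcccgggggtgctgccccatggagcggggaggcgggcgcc
DKK1, chr10:52314031-52314280: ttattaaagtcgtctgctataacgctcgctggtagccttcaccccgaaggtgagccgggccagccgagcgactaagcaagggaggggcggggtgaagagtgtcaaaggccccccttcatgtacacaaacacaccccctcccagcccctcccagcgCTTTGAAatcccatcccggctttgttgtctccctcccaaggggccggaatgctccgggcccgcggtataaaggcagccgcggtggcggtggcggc
RefSeq windows were matched by symbol for 28 of the 44 genes, which had 32 windows. CTTTGAT or CTTTGAA, searched on both strands, occurred in 1 of the 32 windows, that of DKK1, and in 5.94% of all 35116 windows of the same length. A match of these letters is a description of the window only.

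CRISPR Control stood furthest from WT in these genes. Among the 32 tested genes, 17 were higher and 11 lower in CRISPR Control than in WT by limma with a Benjamini-Hochberg adjusted p under 0.05 over 15987 genes, where 27.2% of all tested genes were higher and 26.3% lower. Log2 fold changes are given with their SE after ± and come from 12 libraries. The median absolute log2 fold change was 1.01 over the 32 genes and 0.35 over all tested genes. With a log2 fold change of 1 or more also required, 10 genes were called upward and 6 downward, 16 of the 32, against 14.7% of all tested genes. WNT2, WNT7A and RNF43 passed the minimum mainly through the line in which they were high, so a difference between lines was built into their selection and the counts describe the tested genes without being support for a difference.

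The knockout clones differed less from WT in number. In TIMP1 KO 1, 11 of the 32 genes were higher and 9 lower than in WT, against 18.0% and 17.5% of all tested genes. TIMP1 KO 2 had 11 higher and 11 lower than WT, against 27.1% and 27.9%. With CRISPR Control as the reference, TIMP1 KO 1 had 13 higher and 14 lower (31.7% and 31.3% of all genes) and TIMP1 KO 2 had 12 higher and 14 lower (33.3% and 34.4%). The clones also differed from each other, with 10 genes higher and 6 lower in TIMP1 KO 2 than in TIMP1 KO 1, against 18.1% and 20.1% of all genes. After quantile normalization the last split was 8 higher and 10 lower. The comparisons against WT share the WT libraries and those against CRISPR Control share its libraries, so they are not independent of each other.

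**Figure D1:**
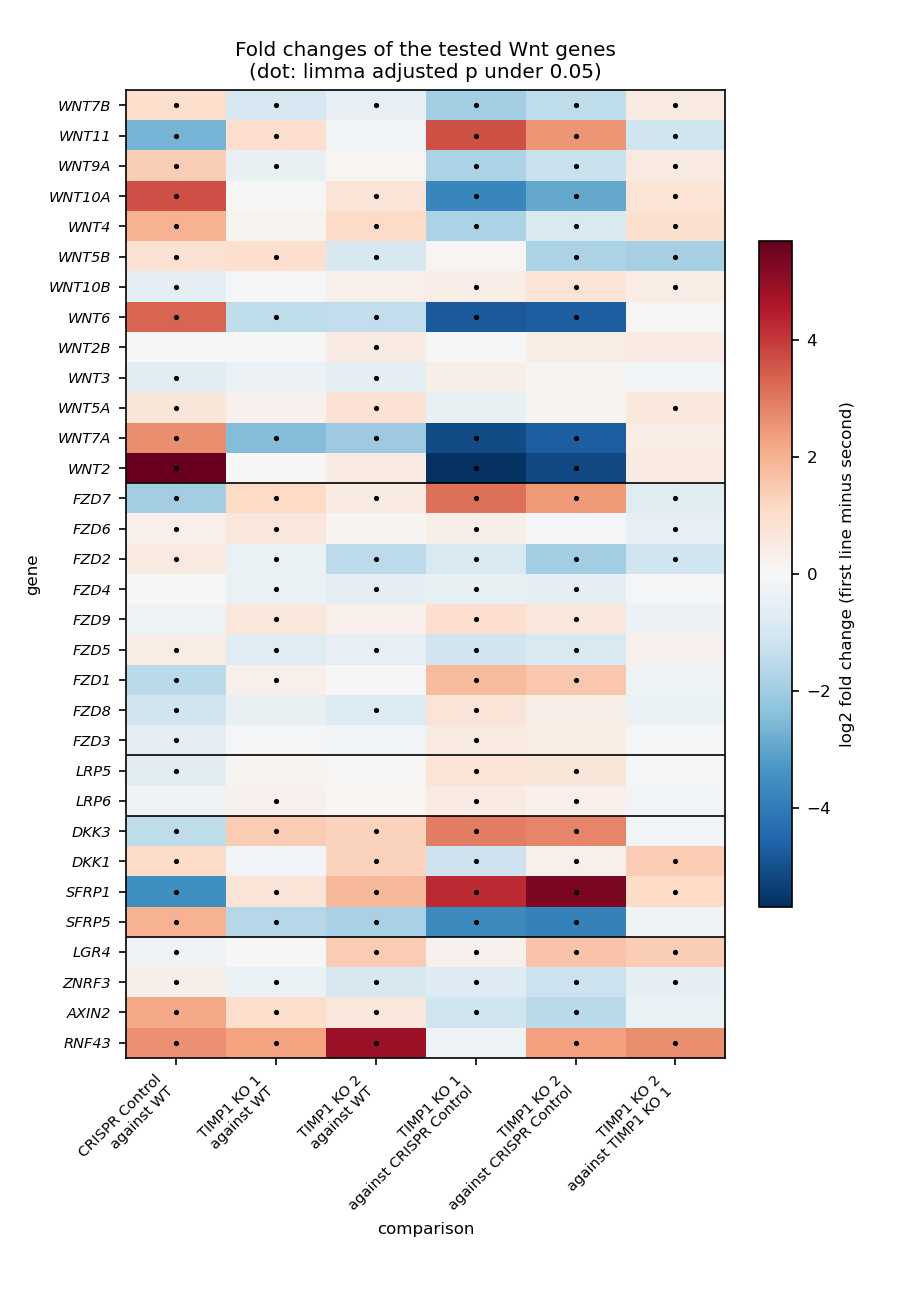
Log2 fold change of the 32 tested genes (vertical axis, grouped by role with lines between ligands, Frizzled receptors, coreceptors, secreted inhibitors and the feedback and R-spondin axis) in the 6 pairs of lines (horizontal axis); color gives the fold change of the first line over the second and dots mark a limma adjusted p under 0.05. The strongest colors stand in the columns that involve CRISPR Control, and the column of TIMP1 KO 2 against TIMP1 KO 1 holds the fewest dots, 16.

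CRISPR Control was the line with the highest mean for 13 of the 32 genes and the lowest mean for 13, which left 6 genes in which it was neither. Over all tested genes it was highest for 35.6% and lowest for 33.6%. Among ligands it was highest for 7 and lowest for 3 of 13, and among Frizzled receptors highest for 3 and lowest for 5 of 9. WNT2 and WNT7A, among the 7, passed the minimum mainly through CRISPR Control.

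Among the ligands, 9 of the 13 tested were higher in CRISPR Control than in WT and 3 were lower, against 27.2% and 26.3% of all tested genes. WNT2 and WNT7A, among the 9, passed the minimum mainly through CRISPR Control, so their rise was built into their selection. WNT6 and WNT10A rose together in CRISPR Control, and WNT6 was in addition lower in both knockout clones than in WT. WNT6 stood at 67.9, 80.0 and 61.0 normalised counts in WT and at 656, 609.6 and 826 in CRISPR Control. It stood at 27.0, 16.9 and 31.8 in TIMP1 KO 1 and at 23.2, 27.2 and 27.2 in TIMP1 KO 2. All CRISPR Control libraries lay above all others, and all knockout libraries lay below WT. On the log2 scale the difference from WT was 3.30 ± 0.21 (limma adjusted p = 2.58e-10) in CRISPR Control. It was -1.47 ± 0.21 (limma adjusted p = 2.75e-05) in TIMP1 KO 1 and -1.39 ± 0.21 (limma adjusted p = 2.22e-05) in TIMP1 KO 2, and between the clones it was 0.08 ± 0.21 (limma adjusted p = 0.810), with a 95% interval of -0.37 to 0.53.

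WNT10A, its neighbour, stood at 132, 112 and 121 normalised counts in WT and at 1392, 1496 and 1801 in CRISPR Control. Its values were 129, 97.9 and 129.9 in TIMP1 KO 1 and 204, 188 and 223 in TIMP1 KO 2. CRISPR Control lay above all other lines, TIMP1 KO 2 lay above WT, and TIMP1 KO 1 overlapped WT. The log2 difference from WT was 3.67 ± 0.14 (limma adjusted p = 6.72e-14) in CRISPR Control and 0.75 ± 0.14 (limma adjusted p = 1.33e-04) in TIMP1 KO 2. In TIMP1 KO 1 it was -0.04 ± 0.14 (limma adjusted p = 0.837), with a 95% interval of -0.33 to 0.24. So the neighbours moved one way in CRISPR Control, while in TIMP1 KO 2 WNT6 fell and WNT10A rose against WT.

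WNT7B, a ligand active in β-catenin signaling in many epithelia, was the most abundant ligand per kilobase of exon in WT, CRISPR Control and TIMP1 KO 2. It stood at 3012, 2918 and 3056 normalised counts in WT and 6160, 4991 and 6754 in CRISPR Control. It stood at 1556, 1496 and 1580 in TIMP1 KO 1 and 2014, 2292 and 2224 in TIMP1 KO 2. The lines did not overlap, and the order from high to low was CRISPR Control, WT, TIMP1 KO 2 and TIMP1 KO 1, with limma adjusted p under the threshold in all 6 pairs. On the log2 scale, the change from WT was 0.98 ± 0.09 (limma adjusted p = 3.74e-08) in CRISPR Control, -0.96 ± 0.09 (limma adjusted p = 1.22e-07) in TIMP1 KO 1 and -0.46 ± 0.09 (limma adjusted p = 2.70e-04) in TIMP1 KO 2.

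WNT9A stood at 570.5, 552 and 537 normalised counts in WT and 1513, 1408 and 1496 in CRISPR Control. Its values were 432, 398 and 420.5 in TIMP1 KO 1 and 541, 630.4 and 639 in TIMP1 KO 2. CRISPR Control was again above every other library, TIMP1 KO 1 was below every other, and TIMP1 KO 2 overlapped WT. Against WT the log2 difference was 1.41 ± 0.09 (limma adjusted p = 1.37e-10) in CRISPR Control, -0.41 ± 0.09 (limma adjusted p = 0.00127) in TIMP1 KO 1 and 0.12 ± 0.09 (limma adjusted p = 0.252) in TIMP1 KO 2.

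WNT4, known from kidney and reproductive tract development, stood at 198, 134 and 133 normalised counts in WT and 571, 677 and 595 in CRISPR Control. It stood at 194, 159.8 and 177 in TIMP1 KO 1 and 277, 324 and 402 in TIMP1 KO 2. TIMP1 KO 1 overlapped WT, and TIMP1 KO 2 lay between these and CRISPR Control. Relative to WT, the log2 fold change was 2.00 ± 0.16 (limma adjusted p = 4.70e-09) in CRISPR Control, 0.21 ± 0.16 (limma adjusted p = 0.327) in TIMP1 KO 1 and 1.11 ± 0.16 (limma adjusted p = 8.94e-06) in TIMP1 KO 2.

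WNT11 was lowest in CRISPR Control. This ligand, best known for signaling apart from β-catenin, stood at 1050, 929 and 1039 normalised counts in WT and 148, 145 and 186 in CRISPR Control. It stood at 2058, 1933 and 1956 in TIMP1 KO 1 and 840.0, 894 and 961 in TIMP1 KO 2. TIMP1 KO 1 was above and CRISPR Control below all other libraries, while TIMP1 KO 2 overlapped WT. Limma gave a log2 fold change over WT of -2.66 ± 0.10 (limma adjusted p = 8.41e-14) in CRISPR Control, 0.98 ± 0.10 (limma adjusted p = 3.22e-07) in TIMP1 KO 1 and -0.16 ± 0.10 (limma adjusted p = 0.174) in TIMP1 KO 2. Per kilobase of exon, WNT11 made up 53.7% of the summed ligand level in TIMP1 KO 1, where it was the leading ligand.

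WNT5B separated the knockout clones. It stood at 214, 275 and 217 normalised counts in WT and 381, 466 and 431 in CRISPR Control. Its values were 486, 414 and 475 in TIMP1 KO 1 and 96.9, 139 and 136 in TIMP1 KO 2. TIMP1 KO 1 was above and TIMP1 KO 2 below every WT library, and CRISPR Control overlapped TIMP1 KO 1. Fitted log2 fold changes over WT were 0.97 ± 0.15 (limma adjusted p = 3.82e-05) in TIMP1 KO 1, -0.93 ± 0.15 (limma adjusted p = 2.65e-05) in TIMP1 KO 2 and 0.86 ± 0.15 (limma adjusted p = 7.00e-05) in CRISPR Control. Between the clones it was -1.89 ± 0.15 (limma adjusted p = 7.34e-09). FBXL14 overlaps WNT5B on the opposite strand, and the strand setting of the counting is not given in the sources used here, so reads of this pair could not be told apart.

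**Figure D2:**
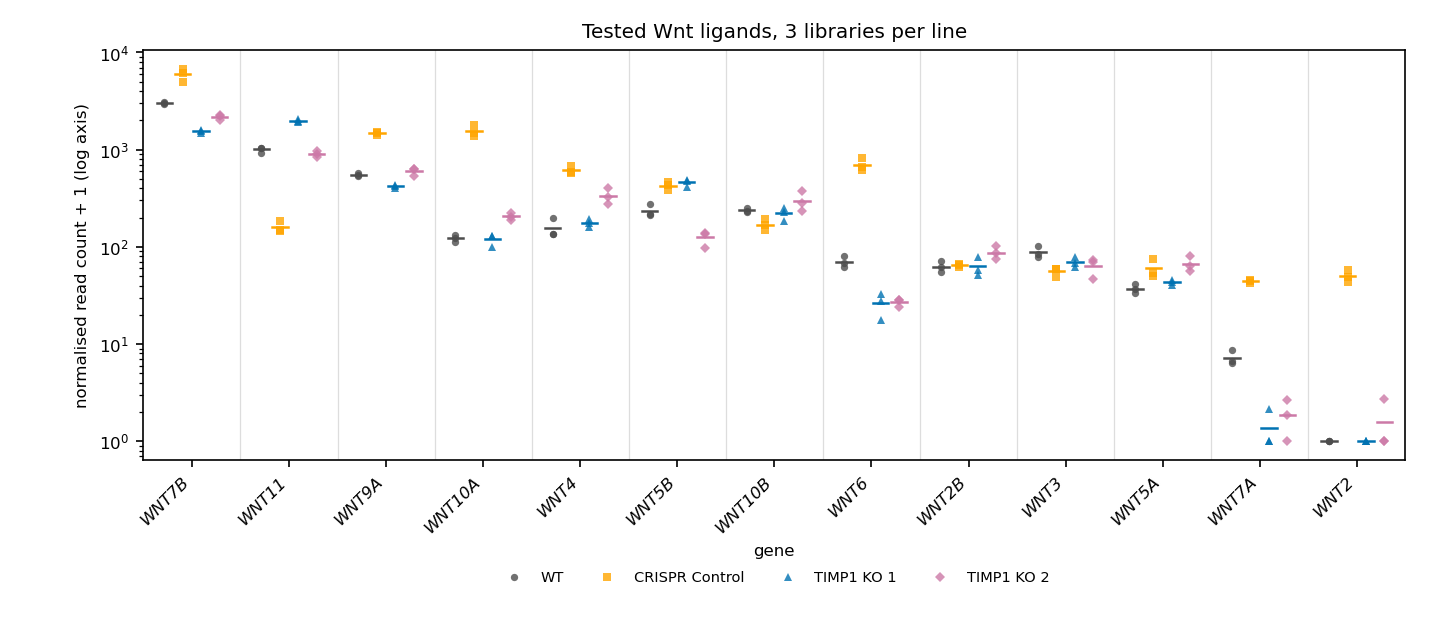
Normalised read counts plus 1 (log axis) of the 13 tested Wnt ligands in the 3 libraries of each of the 4 lines; horizontal bars are line means. CRISPR Control stands above the other lines for WNT7B, WNT9A, WNT10A, WNT4, WNT6, WNT7A and WNT2 and below them for WNT11, and TIMP1 KO 2 stands below the others for WNT5B.

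WNT2 and WNT7A were nearly absent from the knockout clones. WNT2 stood at 56.1, 47.4 and 42.9 normalised counts in CRISPR Control, had 0 reads in all WT and TIMP1 KO 1 libraries, and had 2 reads in 1 library of TIMP1 KO 2. Against a floor of 3 reads per library, its level in CRISPR Control was at least 16.3-fold higher than in WT and at least 15.8-fold higher than in TIMP1 KO 1. No p-value is given for WNT2, WNT7A or RNF43, since the line that is high carried each past the minimum. WNT2 overlaps CFTR on the opposite strand. WNT7A stood at 5.66, 5.45 and 7.62 normalised counts in WT and 44.1, 41.5 and 45.1 in CRISPR Control, against 1 read over the libraries of TIMP1 KO 1 and 3 reads over those of TIMP1 KO 2. The ratio of WT to TIMP1 KO 1 was 18.5 with an exact 95% interval of 2.93 to 767, and that of WT to TIMP1 KO 2 was 6.97 with an interval of 2.05 to 36.8, both for counting error only. The libraries of CRISPR Control lay above those of WT, and those of WT above both clones.

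The other 4 tested ligands had no called log2 fold change of 1 or more between any pair of lines. WNT10B averaged 237 ± 13.0 normalised counts (SD, n = 3) in WT, 168 ± 22.8 in CRISPR Control, 220.3 ± 32.1 in TIMP1 KO 1 and 298 ± 72.3 in TIMP1 KO 2. WNT5A averaged 36.2 ± 4.23, 59.0 ± 13.3, 42.6 ± 2.54 and 66.1 ± 12.4 normalised counts in the same order. WNT3 averaged 87.0 ± 11.5, 54.8 ± 6.38, 68.9 ± 8.17 and 62.0 ± 14.5. These differences were small beside those of WNT6 or WNT10A between CRISPR Control and WT. For TIMP1 KO 2 against WT, however, WNT5A had a log2 difference of 0.84, above the 0.75 of WNT10A. WNT10B differed by 0.80 between TIMP1 KO 2 and CRISPR Control. These calls of WNT5A and WNT10B were not lost in any alternative. WNT2B averaged 61.8 ± 7.88, 63.4 ± 1.97, 61.9 ± 14.1 and 86.5 ± 12.9 normalised counts, and its only call, TIMP1 KO 2 against WT (limma adjusted p = 0.0460), was lost without WT replicate 1 (0.0909), WT replicate 3 (0.156), TIMP1 KO 1 replicate 1 (0.0518), TIMP1 KO 2 replicate 1 (0.175) or TIMP1 KO 2 replicate 3 (0.0821).

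The 6 untested ligands were WNT1, WNT16, WNT3A, WNT8A, WNT8B and WNT9B. WNT9B had 0 reads in all 12 libraries. By the outermost GENCODE bounds it lies 46 bases from WNT3 on chromosome 17, on the other strand. The RefSeq windows of WNT3 (46818693-46818942) and WNT9B (46851333-46851582) lie much further apart. WNT1, 6.586 kb from WNT10B on chromosome 12, had at most 3 reads in any library, and WNT3A, 59.065 kb from WNT9A on chromosome 1, at most 7. WNT8A reached 11 reads in 1 library of TIMP1 KO 2 and at most 2 in the other lines, and WNT8B reached 5. These levels were at the limit of detection or close to it. WNT16 was the highest of this group, at 13.0, 26.1 and 12.1 normalised counts in CRISPR Control, 12.4, 5.26 and 10.1 in TIMP1 KO 2 and at most 6 reads in any library of WT or TIMP1 KO 1.

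FZD7, a receptor known for β-catenin signaling in stem and carcinoma cells, was the Frizzled receptor with the widest range between lines. It stood at 1940, 1870 and 1834 normalised counts in WT and 469.9, 440.0 and 521 in CRISPR Control. It stood at 4594, 3881 and 4024 in TIMP1 KO 1 and 2464, 2477 and 2783 in TIMP1 KO 2. The 4 lines did not overlap, with TIMP1 KO 1 highest and CRISPR Control lowest, and all 6 pairs passed the threshold. Compared with WT, the log2 difference was -1.98 ± 0.08 (limma adjusted p = 5.75e-13) in CRISPR Control, 1.14 ± 0.08 (limma adjusted p = 4.36e-09) in TIMP1 KO 1 and 0.45 ± 0.08 (limma adjusted p = 1.80e-04) in TIMP1 KO 2. Between the deficient and competent lines it was 1.79 ± 0.06 (limma adjusted p = 6.24e-15).

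FZD2, which binds WNT5A among others, moved the other way. It stood at 1703, 1581 and 1663 normalised counts in WT and 2279, 2092 and 2658 in CRISPR Control. It stood at 1266, 1309 and 1283 in TIMP1 KO 1 and 514, 663 and 590.2 in TIMP1 KO 2, so the lines again did not overlap and TIMP1 KO 2 was lowest. The log2 difference from WT was 0.50 ± 0.10 (limma adjusted p = 2.68e-04) in CRISPR Control, -0.36 ± 0.10 (limma adjusted p = 0.00711) in TIMP1 KO 1 and -1.49 ± 0.10 (limma adjusted p = 2.74e-10) in TIMP1 KO 2. Per kilobase of exon, FZD2 led the Frizzled receptors in WT and CRISPR Control (436 ± 16.5 and 620.1 ± 76.3 normalised reads per kb, SD, n = 3) and FZD7 led them in TIMP1 KO 1 and TIMP1 KO 2 (908 ± 82.2 and 561 ± 39.3).

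FZD1 stood at 390.5, 396 and 421 normalised counts in WT and 132, 145 and 144 in CRISPR Control. Its values were 529, 470.3 and 472 in TIMP1 KO 1 and 386, 458 and 389 in TIMP1 KO 2. CRISPR Control lay far below the other lines, with a log2 difference from WT of -1.52 ± 0.11 (limma adjusted p = 7.52e-10), and TIMP1 KO 2 overlapped WT. For TIMP1 KO 2 the difference from WT was 0.03 ± 0.11 (limma adjusted p = 0.851), and that of TIMP1 KO 1, 0.28 ± 0.11 (limma adjusted p = 0.0444), lost its call without any 1 library of WT or TIMP1 KO 1 (adjusted p of 0.0653 to 0.172) or without TIMP1 KO 2 replicate 3 (0.0503).

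FZD5 stood at 378, 426 and 471 normalised counts in WT and 582, 496 and 615 in CRISPR Control. Its values were 258, 236 and 284 in TIMP1 KO 1 and 323, 291 and 304 in TIMP1 KO 2. Every knockout library lay below every competent library. On the log2 scale, the change from WT was -0.71 ± 0.12 (limma adjusted p = 9.08e-05) in TIMP1 KO 1, -0.47 ± 0.12 (limma adjusted p = 0.00207) in TIMP1 KO 2 and 0.41 ± 0.12 (limma adjusted p = 0.00598) in CRISPR Control.

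FZD8 stood at 123, 135 and 102 normalised counts in WT and 40.6, 61.7 and 60.4 in CRISPR Control. Its values were 78.9, 99.0 and 87.5 in TIMP1 KO 1 and 61.3, 85.0 and 61.5 in TIMP1 KO 2. WT held the highest libraries, and the other lines lay below it. Relative to WT, the log2 fold change was -1.15 ± 0.20 (limma adjusted p = 1.00e-04) in CRISPR Control and -0.79 ± 0.20 (limma adjusted p = 0.00264) in TIMP1 KO 2, whereas TIMP1 KO 1 gave -0.44 ± 0.20 (limma adjusted p = 0.102).

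FZD4, the receptor for Norrin, averaged 746 ± 24.4 normalised counts (SD, n = 3) in WT, 768 ± 55.2 in CRISPR Control, 572 ± 26.9 in TIMP1 KO 1 and 526 ± 7.18 in TIMP1 KO 2. Both clones were lower than WT, with log2 differences of -0.38 ± 0.08 (limma adjusted p = 0.00156) and -0.50 ± 0.08 (limma adjusted p = 5.89e-05), and for CRISPR Control against WT the difference was 0.04 ± 0.08 (limma adjusted p = 0.722), with a 95% interval of -0.14 to 0.22. PRSS23 overlaps FZD4 on the opposite strand. FZD6, known for planar polarity, averaged 1610 ± 108, 1971 ± 126, 2492 ± 81.9 and 1813 ± 68.1 normalised counts in the order WT, CRISPR Control, TIMP1 KO 1 and TIMP1 KO 2. FZD9 averaged 466 ± 23.8, 391 ± 105, 741 ± 76.9 and 581 ± 77.7. Both were highest in TIMP1 KO 1 (log2 difference from WT of 0.63 ± 0.07 (limma adjusted p = 2.33e-06) for FZD6 and 0.66 ± 0.15 (limma adjusted p = 0.00147) for FZD9). FZD3 averaged 85.3 ± 10.7, 57.3 ± 11.3, 80.2 ± 6.75 and 75.5 ± 3.16 normalised counts, and FZD10 had 0 reads in all 12 libraries, which allows at most 2.49 to 3.56 normalised counts.

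**Figure D3:**
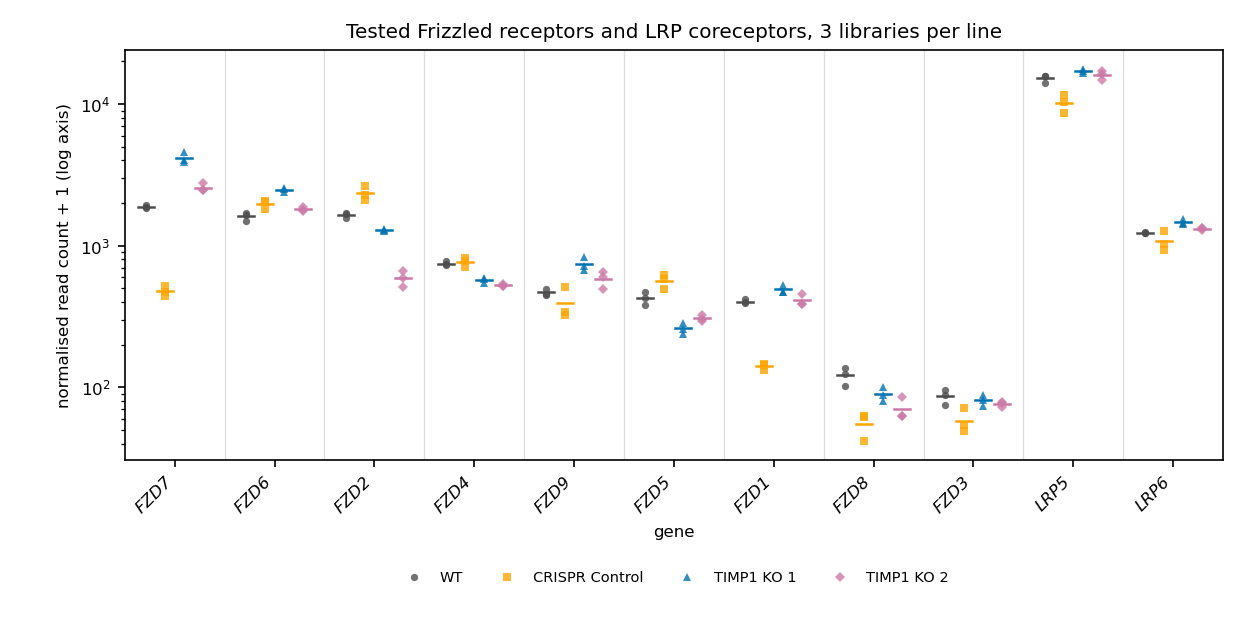
Normalised read counts plus 1 (log axis) of the 9 tested Frizzled receptors and of LRP5 and LRP6 in the 3 libraries of each of the 4 lines; horizontal bars are line means. FZD7 and FZD1 are lowest in CRISPR Control, FZD2 is lowest in TIMP1 KO 2, and FZD6 is highest in TIMP1 KO 1.

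The coreceptors had their lowest means in CRISPR Control. LRP5 averaged 15203 ± 910.3 normalised counts (SD, n = 3) in WT, 10177 ± 1431 in CRISPR Control, 17120 ± 548 in TIMP1 KO 1 and 16146 ± 1243 in TIMP1 KO 2. It was lower in CRISPR Control than in WT by a log2 difference of -0.59 ± 0.09 (limma adjusted p = 2.44e-05). LRP6 averaged 1238 ± 11.2, 1073 ± 168, 1473 ± 63.3 and 1317 ± 29.5 normalised counts in the same order. Its log2 difference between CRISPR Control and WT was -0.22 ± 0.09 (limma adjusted p = 0.0525), and without CRISPR Control replicate 1 it was -0.34 with a limma adjusted p of 0.00129. Deficient against competent lines gave 0.42 ± 0.06 (limma adjusted p = 1.08e-05) for LRP5 and 0.28 ± 0.06 (limma adjusted p = 9.24e-04) for LRP6. Against WT alone, neither clone was called for LRP5, and TIMP1 KO 2 was not called for LRP6. For LRP6, TIMP1 KO 1 against WT gave 0.25 (limma adjusted p = 0.0402). That call was lost without any 1 library of WT or TIMP1 KO 1 (adjusted p of 0.0604 to 0.139).

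DKK1, which blocks LRP5 and LRP6 and is itself a target of β-catenin, was the leading inhibitor in every line per kilobase of exon. It stood at 4377, 4387 and 4178 normalised counts in WT and 8266, 9072 and 9357 in CRISPR Control. It stood at 3861, 3871 and 4047 in TIMP1 KO 1 and 11143, 10735 and 10554 in TIMP1 KO 2. CRISPR Control and TIMP1 KO 2 thus formed a high pair and WT and TIMP1 KO 1 a low pair. Limma gave a log2 fold change over WT of 1.04 ± 0.07 (limma adjusted p = 1.59e-10) in CRISPR Control and 1.33 ± 0.07 (limma adjusted p = 5.65e-12) in TIMP1 KO 2. In TIMP1 KO 1 it was -0.14 ± 0.07 (limma adjusted p = 0.116), with a 95% interval of -0.27 to 0.00. Deficient against competent lines gave 0.07 ± 0.05 (limma adjusted p = 0.171), while between the clones the difference was 1.46 ± 0.07 (limma adjusted p = 4.34e-12). DKK1 overlaps PRKG1-AS1 on the opposite strand. Its lead per kilobase rests on the joined length of all annotated exons, 2221 bases for DKK1 and 11958 for DKK3. Without this division, DKK3 had the higher mean in WT (5852 against 4314), TIMP1 KO 1 (16102 against 3926) and TIMP1 KO 2 (14548 against 10810).

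DKK3, a secreted protein of the Dickkopf family that does not act on LRP6 as DKK1 does, separated deficient from competent lines. It stood at 6027, 5648 and 5879 normalised counts in WT and 2006, 2084 and 2329 in CRISPR Control. It stood at 16199, 15845 and 16261 in TIMP1 KO 1 and 13968, 14946 and 14730 in TIMP1 KO 2. Every knockout library was above every WT library, and every WT library was above CRISPR Control. Fitted log2 fold changes over WT were 1.46 ± 0.07 (limma adjusted p = 4.83e-12) in TIMP1 KO 1, 1.31 ± 0.07 (limma adjusted p = 1.05e-11) in TIMP1 KO 2 and -1.45 ± 0.07 (limma adjusted p = 2.07e-12) in CRISPR Control. USP47 overlaps the gene on the opposite strand.

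SFRP1 had the widest fold range of the 4 tested inhibitors. It stood at 2104, 2075 and 2177 normalised counts in WT and 163, 177 and 222 in CRISPR Control. It stood at 3439, 3657 and 3435 in TIMP1 KO 1 and 7830, 7517 and 7526 in TIMP1 KO 2. The 4 lines did not overlap, and their order was CRISPR Control, WT, TIMP1 KO 1 and TIMP1 KO 2 from low to high. Compared with WT, the log2 difference was -3.50 ± 0.09 (limma adjusted p = 2.68e-16) in CRISPR Control, 0.73 ± 0.09 (limma adjusted p = 4.01e-06) in TIMP1 KO 1 and 1.85 ± 0.09 (limma adjusted p = 5.12e-12) in TIMP1 KO 2, and between the clones it was 1.12 ± 0.09 (limma adjusted p = 1.48e-08). SFRP5, of the same family, had the reverse order of line means, but its clones overlapped and were not called against each other. It stood at 62.3, 63.6 and 96.2 normalised counts in WT and 263, 298 and 316 in CRISPR Control. It stood at 24.8, 20.3 and 23.9 in TIMP1 KO 1 and 15.7, 18.4 and 24.2 in TIMP1 KO 2, both below every competent library. The log2 difference from WT was 1.99 ± 0.22 (limma adjusted p = 3.70e-07) in CRISPR Control, -1.62 ± 0.22 (limma adjusted p = 1.02e-05) in TIMP1 KO 1 and -1.87 ± 0.22 (limma adjusted p = 7.56e-07) in TIMP1 KO 2.

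The untested inhibitors were DKK2, DKK4, SFRP2 and SFRP4. DKK2 had at most 2 reads, and DKK4 and SFRP2 at most 1 read, in any library. SFRP4 lay just under the minimum for a test, with 18.1, 21.3 and 23.1 normalised counts in CRISPR Control, 9.72, 4.50 and 5.30 in TIMP1 KO 1, 15.7, 10.5 and 9.08 in TIMP1 KO 2 and 1 read in all of WT. The ratio of CRISPR Control to WT was 62.5 with an exact 95% interval of 10.8 to 2510, for counting error only. WT was below every library of the other 3 lines.

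**Figure D4:**
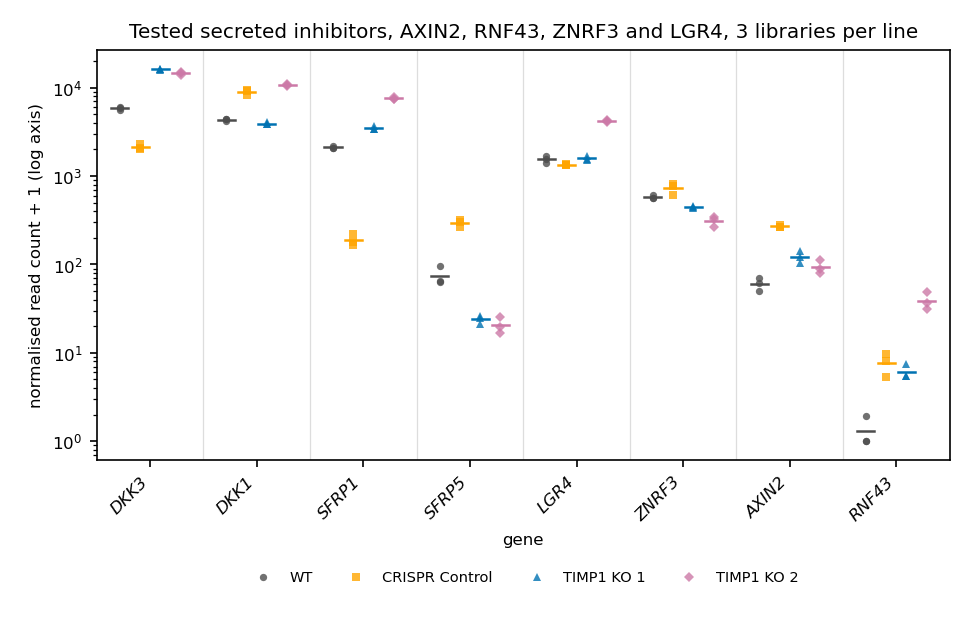
Normalised read counts plus 1 (log axis) of the 4 tested secreted inhibitors and of LGR4, ZNRF3, AXIN2 and RNF43 in the 3 libraries of each of the 4 lines; horizontal bars are line means. DKK3 and SFRP1 are lowest and SFRP5 and AXIN2 highest in CRISPR Control, while LGR4 and RNF43 are highest in TIMP1 KO 2.

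AXIN2, a scaffold of the β-catenin destruction complex that β-catenin itself induces, is often read as a gauge of the pathway. It stood at 69.0, 60.9 and 48.6 normalised counts in WT and 277, 266 and 264 in CRISPR Control. It stood at 140.4, 120.4 and 103 in TIMP1 KO 1 and 88.6, 78.9 and 112 in TIMP1 KO 2. All edited lines lay above WT, and CRISPR Control lay above both clones, which overlapped. On the log2 scale, the change from WT was 2.17 ± 0.17 (limma adjusted p = 4.86e-09) in CRISPR Control, 1.02 ± 0.17 (limma adjusted p = 1.33e-04) in TIMP1 KO 1 and 0.64 ± 0.17 (limma adjusted p = 0.00428) in TIMP1 KO 2, which dropped to 0.33 and lost its call after quantile normalization. Deficient against competent lines gave -0.26 ± 0.12 (limma adjusted p = 0.0718), which passed the threshold without WT replicate 3 (adjusted p = 0.0287), TIMP1 KO 1 replicate 1 (0.0412) or TIMP1 KO 2 replicate 3 (0.0277).

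ZNRF3 stood at 604, 565 and 560.1 normalised counts in WT and 777, 613 and 822 in CRISPR Control. Its values were 443, 459 and 436 in TIMP1 KO 1 and 340.5, 328 and 266 in TIMP1 KO 2. The knockout libraries lay below all competent libraries, with TIMP1 KO 2 below TIMP1 KO 1. Relative to WT, the log2 fold change was -0.89 ± 0.12 (limma adjusted p = 2.84e-06) in TIMP1 KO 2 and -0.80 ± 0.08 (limma adjusted p = 6.94e-08) between deficient and competent lines. In TIMP1 KO 1 it was -0.37 ± 0.12 (limma adjusted p = 0.0179), a call lost without WT replicate 1 (0.0680), TIMP1 KO 1 replicate 1 (0.0512) or TIMP1 KO 1 replicate 3 (0.0567). RNF43, its homologue, was instead highest in TIMP1 KO 2. It stood at 47.2, 35.9 and 30.3 normalised counts in TIMP1 KO 2, 4.32, 7.12 and 8.79 in CRISPR Control and 6.48, 4.50 and 4.42 in TIMP1 KO 1, with 1 read over the WT libraries. The ratio of TIMP1 KO 2 to WT was 116 with an exact 95% interval of 20.5 to 4629 for counting error only, so the size of the difference was poorly fixed at this depth.

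LGR4, the R-spondin receptor, stood highest in TIMP1 KO 2. It stood at 1409, 1673 and 1546 normalised counts in WT and 1324, 1336 and 1375 in CRISPR Control. It stood at 1669, 1519 and 1552 in TIMP1 KO 1 and 4346, 4207 and 4064 in TIMP1 KO 2. TIMP1 KO 2 was above every other library by a log2 difference of 1.45 ± 0.07 (limma adjusted p = 1.12e-11) from WT and 1.41 ± 0.07 (limma adjusted p = 4.01e-11) from TIMP1 KO 1, while TIMP1 KO 1 differed from WT by 0.04 ± 0.07 (limma adjusted p = 0.743). The antisense gene LGR4-AS1 overlaps LGR4. LGR5, a marker of intestinal stem cells, had at most 6 reads in any library and 0 in TIMP1 KO 1.

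Summed by role and divided by exon length, the ligands reached 1444 ± 37.1 normalised reads per kb (SD, n = 3) in WT, 2901 ± 305 in CRISPR Control, 1556 ± 51.2 in TIMP1 KO 1 and 1293 ± 94.5 in TIMP1 KO 2. The Frizzled receptors reached 1697 ± 19.5, 1598 ± 108, 2391 ± 116 and 1608 ± 63.2 in the same order. The secreted inhibitors reached 2919 ± 34.2, 4387 ± 288, 3871 ± 45.3 and 7709 ± 134. Each role was highest in a different line, the ligands in CRISPR Control, the receptors in TIMP1 KO 1 and the inhibitors in TIMP1 KO 2, and in each of these the libraries of the highest line lay above all others. DKK1 made up 91.3% of the inhibitor sum in CRISPR Control, 66.5% in WT, 63.1% in TIMP1 KO 2 and 45.7% in TIMP1 KO 1. These shares depend on the exon lengths, since DKK3 had more normalised counts than DKK1 in WT and both clones.

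**Figure D5:**
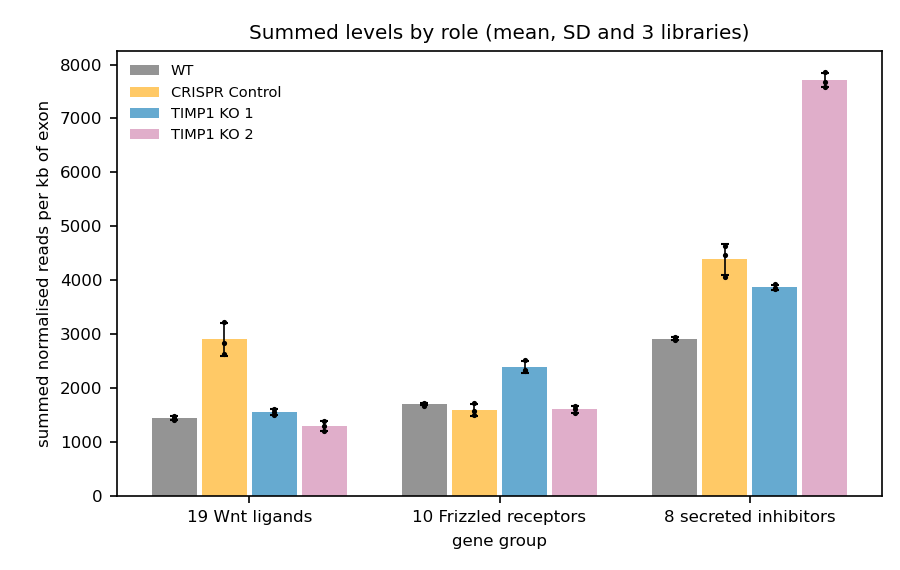
Summed normalised reads per kb of exon (vertical axis, from 0) of the 19 Wnt ligands, 10 Frizzled receptors and 8 secreted inhibitors in each of the 4 lines; bars are means, error bars SD and points the 3 libraries. The ligand sum is highest in CRISPR Control, the receptor sum in TIMP1 KO 1 and the inhibitor sum in TIMP1 KO 2.

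Against the pooled competent lines, the pooled deficient lines had 12 of the 32 genes higher and 13 lower, where 32.9% and 33.0% of all tested genes were called. By role, 2 ligands were higher and 8 lower, 4 Frizzled receptors higher and 3 lower, both coreceptors higher, and 2 inhibitors higher and 1 lower. Against WT alone, the only coreceptor call in a clone was LRP6 in TIMP1 KO 1. WNT2 and WNT7A are among the 8 lower ligands, and RNF43 is among the 12 higher genes. They passed the minimum mainly through the line in which they were high, so their calls are no support for a difference. All 6 knockout libraries lay above all 6 competent libraries for DKK3, LRP6, SFRP1 and FZD7, 4 genes, against 12.3% of all tested genes. They lay below for WNT6, SFRP5, WNT7A, FZD5, FZD4, FZD2, ZNRF3 and WNT7B, 8 genes, against 12.4%. WNT7A stands among these 8 with the same limit of its selection. For WNT6 and SFRP5 the pooled log2 difference was -3.08 ± 0.15 (limma adjusted p = 1.94e-12) and -2.74 ± 0.15 (limma adjusted p = 1.34e-11). The pooled contrast joined unlike competent lines, since CRISPR Control was the more distant from the clones for both genes.

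The rest of the pathway was followed in 5 lists, whose counts stand against 32.9% higher and 33.0% lower among all tested genes in the deficient lines. Of 12 tested genes for ligand handling and secreted modulators, 6 were higher and 4 lower in the deficient lines. CTHRC1, a secreted glycoprotein that binds Wnt and Frizzled proteins, averaged 1001 normalised counts in WT and 144 in CRISPR Control, against 3009 in TIMP1 KO 1 and 1846 in TIMP1 KO 2, a pooled log2 difference of 2.64 ± 0.08. The pooled level of IGFBP4 rose by 1.58 ± 0.07 and that of KREMEN1, a receptor for Dickkopf proteins, fell by 1.25. GPC4, a glypican, differed by -0.42 ± 0.09 on the log2 scale although its mean was higher in the deficient lines, since it averaged 1860 in TIMP1 KO 1 and 72.3 in TIMP1 KO 2, against 459 in WT and 521 in CRISPR Control. The clones thus lay on opposite sides of both competent lines.

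Of 11 tested genes for other receptors, 3 were higher and 6 lower in the deficient lines. Against WT, 9 were lower in TIMP1 KO 2, where 27.9% of all tested genes were lower. CRISPR Control shared much of this, with 7 lower and 3 higher than WT (26.3% and 27.2% of all tested genes). TIMP1 KO 1 had 5 lower and 1 higher than WT (17.5% and 18.0%). Between deficient and competent lines, ROR2 and ROR1, tyrosine kinase receptors for WNT5A, fell by 2.91 and 1.79 on the log2 scale. ROR2 averaged 80.4 normalised counts in WT and 607 in CRISPR Control, against 21.5 in TIMP1 KO 1 and 41.2 in TIMP1 KO 2. CELSR3 and CELSR2, cadherins of planar polarity, had pooled differences of 0.65 ± 0.10 and 0.35 ± 0.11, with the lowest means in CRISPR Control. CELSR2 averaged 866 normalised counts in WT and 389.8 in CRISPR Control, against 1119 in TIMP1 KO 1 and 478 in TIMP1 KO 2, so the latter lay below WT. In the destruction complex and cytoplasmic relay, 4 of 21 tested genes were higher and 13 lower in the deficient lines. The median log2 difference was -0.30 against 0.00 over all tested genes. Against WT, 3 were higher and 6 lower in TIMP1 KO 1 (18.0% and 17.5% of all tested genes). In TIMP1 KO 2, 2 were higher and 8 lower (27.1% and 27.9%). CRISPR Control had 9 higher and 2 lower than WT (27.2% and 26.3%), with a median of 0.24. Between deficient and competent lines, AXIN1 fell by 0.63 and DACT3 by 1.37. TNKS, which marks axin for degradation, rose by 0.35 ± 0.06. CTNNBIP1, an inhibitor of β-catenin, had a pooled difference of 0.16 ± 0.06, but averaged 1411 in WT and 1211 in CRISPR Control against 1709 in TIMP1 KO 1 and 1248 in TIMP1 KO 2, which lay below WT.

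Of 16 nuclear genes, 7 were higher and 4 lower in the deficient lines. The corepressors TLE4 and TLE1 had pooled differences of 1.39 ± 0.09 and 0.45 ± 0.06. TLE4 averaged 74.3 normalised counts in WT and 192 in CRISPR Control, against 193 in TIMP1 KO 1 and 514 in TIMP1 KO 2. TLE1 averaged 2419 and 1566 in the competent lines and 2460 and 2873 in the clones, so TIMP1 KO 1 stood at the level of CRISPR Control for TLE4 and of WT for TLE1. SMARCA4, a chromatin remodeler, had a pooled difference of -0.52 ± 0.06, with 1239 normalised counts in WT and 623 to 649.6 in the other 3 lines. BCL9L, a β-catenin coactivator, averaged 8686 and 9819 in the competent lines and 7136 and 6249 in the clones, a pooled difference of -0.45 ± 0.09. Its CRISPR Control libraries stood at 11546, 6999 and 10913, and the lowest lay within the range of TIMP1 KO 1 (6605 to 7792). Of 22 tested β-catenin target genes, 10 were higher and 8 lower, with a median of 0.09. The list holds 5 genes of the rule (AXIN2, DKK1, RNF43, ZNRF3 and LGR5), of which LGR5 was not tested. RNF43 is among the 10 higher genes. It passed the minimum mainly through TIMP1 KO 2, so its call is no support for a difference. EPHB2 and PPARD had pooled differences of 1.11 ± 0.06 and 1.04 ± 0.07, and FOSL1 fell by 0.74. EPHB2 averaged 10195 normalised counts in WT and 2753 in CRISPR Control, against 10241 in TIMP1 KO 1 and 12661 in TIMP1 KO 2, and CRISPR Control was the line that stood apart. All values of these lists are from limma with an adjusted p under 0.05.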

How the data were processed

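RNA sequencing of 12 libraries, 3 per line, was analysed at the level of genes. The authors trimmed reads with Cutadapt, used STAR for mapping to GRCh38 and featureCounts for gene counts, and scaled every library by its DESeq2 size factor, so the deposited values are a signal of counts scaled between libraries, which hides a change shared by most genes. Replicates were not pooled. The annotation release and strand setting are not given in the sources used here. 1 blank line and 4 columns of the authors' line means were left out. Every value was a whole multiple of its library's step (100% within 0.01 reads), which gave the depth, 26908701 to 36093563 reads, and a floor of 3 reads.

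The main test was limma 3.58.1 (R 4.3.3) on log2(value + 1) for 15987 genes with a mean of at least 10, 1 mean per line, an intensity trend and a two-sided adjusted p threshold of 0.05. Fold changes of low genes are understated by the pseudocount. edgeR 4.0.16 and DESeq2 1.42.0 on recovered reads of 11 libraries (without TIMP1 KO 2 replicate 3), other pseudocounts, filters and scalings and leave-one-out fits were alternatives. Replicates correlated at r of 0.990 to 0.993 across genes and differed by more than sampling noise. Coordinates and exon lengths came from GENCODE 44, whose versioned identifiers matched 97.6% of the table. The exon length of a gene joined all its annotated exons, so it can exceed that of any single transcript.

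Values of every library are given for genes with a line mean of at least 50 and a called log2 fold change of at least 1 in a pair of lines. Line means or low values are given for the rest. From each pathway list, genes were named among those with an overall mean of at least 50. They were the ones with the largest called pooled changes in each direction. GPC4's low and high clones were noted after its values were seen. The genes and lists were chosen with earlier results of these data known. Intervals from reads cover counting error only.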

Additional observations from a re-analysis of the deposited data

Results flagged for a closer look

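WNT5B changed in opposite directions in the knockout clones. Against WT the log2 difference was 0.97 ± 0.15 in TIMP1 KO 1, higher in 3 of 3 libraries, and -0.93 ± 0.15 in TIMP1 KO 2, lower in 3 of 3 libraries. The difference between the clones was itself tested and was -1.89 ± 0.15 (limma adjusted p = 7.34e-09). CRISPR Control was also higher than WT, by 0.86, and overlapped TIMP1 KO 1, so the rise was not particular to a knockout. Reads of WNT5B and of FBXL14 on the opposite strand could not be told apart.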

How the results depend on the processing

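No called fold change of the 32 genes reversed under any alternative that gave a value. Requiring in addition an absolute log2 fold change of at least 1 lowered the calls to 7 (TIMP1 KO 1 against WT), 10 (TIMP1 KO 2 against WT), 16 (CRISPR Control against WT), 16 (TIMP1 KO 1 against CRISPR Control), 7 (TIMP1 KO 2 against TIMP1 KO 1) and 12 (deficient against competent), since this adds a condition. Leaving out 1 library at a time gave 17 to 20, 20 to 24, 25 to 28, 24 to 27, 14 to 17 and 25 to 26 calls in the same order, and 26 to 27 for TIMP1 KO 2 against CRISPR Control. In these fits 28 of the 224 tests of a gene in a comparison changed sides of the threshold at least once, 16 of which were past it with all libraries; they were tests of AXIN2, FZD1, FZD3, FZD6, FZD9, LGR4, LRP6, WNT10B, WNT2B, WNT3, WNT5A and ZNRF3. Samples with the same replicate number did not deviate together (r of -0.13 to 0.16, over 0.1 in 2 of 18 pairs), and a fit with a replicate block called 28 genes for CRISPR Control over WT, 19 for TIMP1 KO 1 over WT and 20 for TIMP1 KO 2 over WT. On recovered reads of 11 libraries (100% whole), edgeR and DESeq2 called 28 of the 32 genes each for CRISPR Control over WT (8450 and 8444 of all genes, limma 8541) and 17 each for TIMP1 KO 2 over TIMP1 KO 1 (5569 and 5600, limma 6100). Equal library totals shifted the median of all genes by at most 0.11. Depth limits WNT2, WNT7A, RNF43 and the 12 untested genes.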
